A study of Rattus norvegicus with 3 samples.

Results

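The 505 cells that the authors labelled Myeloid in a single-cell library of rat thymic stroma are described here. They were taken by that label from 13226 annotated cells, and made up 3.82% of them (exact Clopper-Pearson interval 3.50% to 4.16%). The study took 3 samples from the thymus of Lewis rats, which are inbred, at an age of 8 weeks: 1 droplet library of CD45-negative stromal cells, 1 droplet library of thymocytes, and 1 Stereo-seq section. With 1 sample per group no test between samples was possible, and every interval below covers counting error only. The number of animals behind each library is not given in the sources used here.

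Myeloid cells arise in bone marrow and share early precursors. Neutrophils fill their granules in a set order during maturation: promyelocytes make azurophil granules with myeloperoxidase and serine proteases, later stages make specific granules with cathelicidin and lactoferrin, and gelatinase granules come last. Tissue macrophages of the thymus clear dying thymocytes and make the C1q chains of complement, and thymic dendritic cells present antigen on class II molecules to maturing T cells.

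The Myeloid label was rich in neutrophil granule transcripts and held no macrophage-like or dendritic-like cluster. The azurophil genes Mpo, Elane, Prtn3 and Ctsg were mostly in different cells from specific granule genes, with defensins beside either. Of the 3 marker genes given for the label, RatNP-3b, a neutrophil alpha-defensin, and Pglyrp1, a peptidoglycan recognition protein of neutrophil granules, were high. C1qa, a macrophage gene, had 0 UMIs (unique molecular identifiers, the counted molecules) among 6036710, which allows a level of up to 0.497 UMIs per 1000000 UMIs (CPM), taking 3 counts as the limit of a 0. The data therefore went against C1qa as a marker of these cells.

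The rat alpha-defensin genes shown here lie near each other and have similar sequences, which bears on how their counts can be read. The RefSeq sequences (build GRCr8) from 250 bases before to 50 after the start of 3 of them are shown because they display this likeness. All 3 are on the minus strand of chromosome 16: RatNP-3b at chr16:77248928-77249227, Np4 at chr16:77199593-77199892 and Defa11 at chr16:77237992-77238291. The files' own build is mRatBN7.2. Capitals mark the letters TTGCNNAA, a C/EBP-type motif that was searched on both strands.
RatNP-3b: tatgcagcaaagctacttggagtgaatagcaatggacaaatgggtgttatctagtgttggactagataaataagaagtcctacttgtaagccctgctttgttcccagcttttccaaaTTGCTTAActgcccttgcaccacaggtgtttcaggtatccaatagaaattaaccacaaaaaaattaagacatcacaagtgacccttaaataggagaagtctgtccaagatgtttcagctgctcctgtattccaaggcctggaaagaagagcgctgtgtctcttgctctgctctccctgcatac
Np4: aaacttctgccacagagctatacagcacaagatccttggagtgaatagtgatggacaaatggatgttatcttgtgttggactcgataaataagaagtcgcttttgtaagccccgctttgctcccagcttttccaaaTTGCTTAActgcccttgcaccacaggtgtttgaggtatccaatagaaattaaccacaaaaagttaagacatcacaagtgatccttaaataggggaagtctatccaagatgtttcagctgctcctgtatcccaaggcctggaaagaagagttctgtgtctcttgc
Defa11: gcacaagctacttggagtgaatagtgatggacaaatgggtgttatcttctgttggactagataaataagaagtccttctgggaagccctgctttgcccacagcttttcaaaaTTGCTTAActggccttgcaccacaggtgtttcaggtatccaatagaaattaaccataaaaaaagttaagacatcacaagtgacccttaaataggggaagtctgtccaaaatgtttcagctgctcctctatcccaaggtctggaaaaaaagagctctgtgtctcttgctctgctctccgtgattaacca
Over a global alignment the RatNP-3b sequence matched that of Defa11 at 88.5% of aligned positions and that of Np4 at 81.2%, and Np4 matched Defa11 at 77.8%. The motif occurred 1 time in each, 133, 114 and 138 bases before the start in the order shown. Of all 27457 such promoters, 10.5% held it on either strand. Mpo, Lcn2, Pglyrp1 and Cebpe were added by choice to the 20 genes with the largest lead described below. Of all these genes, 19 had a promoter sequence and 10 of the 19 held the motif. Among those 10 were the 3 similar promoters shown and the added Lcn2. GAGGAA, a PU.1-type motif, was in 27.5% of all promoters and in 10 of the 19 but in none of the 3 shown. Those 10 included all the genes added by choice. TATAAA was in 14.3% of all and in 3 of the 19. These matches describe letters in a window and are not binding sites. Similarity of the defensin transcripts was not analysed here, so the split of UMIs among RatNP-3b, Np4, Defa5 and Defa11 is uncertain.

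Granule and antimicrobial genes took up 23.4% of all UMIs of the label. The list of 20 such genes gave a median of 16.6% of a cell's UMIs, with single cells from 0.196% to 62.4%. In the 8216 cells of the 5 fibroblast types of the same library (TMC1 to TMC4 and capFb), the list took up 0.0160% of UMIs. Of the 20 genes, 18 had at least 20 UMIs in the label and 17 of these were at least 3-fold above every other stromal type of at least 50 cells. Over all 11292 genes with at least 20 UMIs, 309 (2.74%) met that rule. The median ratio of the 18 genes to the other annotated stromal cells together was 857, against 0.629 over all 13718 genes compared in this way. Because the label itself came from clustering these cells by expression, these leads describe the label and do not test it.

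S100a9 and S100a8, the 2 chains of calprotectin, an antimicrobial protein of neutrophils, were the most abundant. S100a9 stood at 71122 CPM (exact Poisson interval 70909 to 71335) and had a UMI in 82.6% of cells. S100a8 stood at 49371 CPM in 81.2% of cells. RatNP-3b followed at 37186 CPM in 75.6% of cells, with a median of 57 and a highest value of 8781 UMIs per cell. The other alpha-defensins were also high, with Np4 at 22842 CPM and Defa5 at 18945 CPM. Camp, the cathelicidin precursor of specific granules, reached 12208 CPM in 69.9% of cells, and Pglyrp1 595 CPM in 41.6%. Cells that should lack these genes gave the background: S100a9 had a UMI in 30.4% of fibroblasts and RatNP-3b in 15.3%, at median depths of 9006.5 UMIs in fibroblasts and 9510 in Myeloid cells. The level of RatNP-3b was 186-fold above that of the next type, TEC-d, an epithelial type, and 98.1% of its UMIs in annotated cells lay in the label.

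The azurophil genes were spread over fewer cells. Ctsg (cathepsin G) stood at 5353 CPM in 44.8% of cells and Elane (neutrophil elastase) at 2727 CPM in 40.6%. Mpo (myeloperoxidase) stood at 1871 CPM in 61.6% and Prtn3 (proteinase 3) at 1274 CPM in 36.8%. Late genes were rare. Ngp, a neutrophilic granule protein, reached 2935 CPM but had a UMI in only 24.0% of cells, and Mmp8, the neutrophil collagenase, reached 71.9 CPM in 4.16%. Ltf (lactoferrin) had 4 UMIs and Bpi (bactericidal permeability-increasing protein) had 2, so 2 granule genes were close to absent. Lcn2 stood at 1764 CPM, with 64.0% of its annotated UMIs in the label and 185 CPM in TEC-b, another epithelial type. Mmp9 (gelatinase B), at 15.6 CPM, was below its level in TEC-d of 31.2 CPM.

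Ranked by lead over the next type, Ngp led by 629-fold, Fcnb (ficolin B, a lectin of immature myeloid cells) by 263-fold, Camp by 202-fold and Hp (haptoglobin) by 198-fold. The other 16 of the 20 genes with the largest lead were RatNP-3b, S100a9, Elane, S100a8, Clec12a, Ms4a3, Clec7a, Defa5, Np4, Tf, Defa11, Lyz2, Tyrobp, Mcemp1, Ctsg and Prtn3, with leads of 169-fold to 81.5-fold after RatNP-3b. Mcemp1 had no UMI in the small TEC-a type, and its lead of at least 83.8-fold is a lower bound. Ms4a3, a marker of granulocyte and monocyte precursors, had a UMI in 68.5% of cells against 0.268% of fibroblasts. Tf (transferrin) stood at 1866 CPM in 58.2% of cells.

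The marker lists of other lineages gave much lower sums, as the plot of list levels shows. The 10 neutrophil markers summed to 104172 CPM, and 9 of 9 with at least 20 UMIs led every other type 3-fold. Most of this sum came from S100a8 at 49371 CPM and RatNP-3b at 37186 CPM, while Csf3r and Cxcr2 stood at 20.2 and 20.5 CPM. The 10 macrophage markers summed to 79.2 CPM against 11.2 CPM in fibroblasts. C1qa, C1qb and C1qc were all at 0, Cd163 (a haemoglobin scavenger receptor) had 1 UMI, and Adgre1 (F4/80) had 2. Cd68, a lysosomal glycoprotein, at 47.7 CPM in 19.8% of cells, was the only macrophage marker that led every other type 3-fold. Against the other annotated stromal cells pooled, 3 of 4 macrophage markers compared (Cd68, Csf1r and Mrc1) were at least 3-fold higher. Over all genes 9.79% were. The median ratio of the 4 was 16.8. The 10 dendritic markers summed to 62.5 CPM, below the 104 CPM of fibroblasts, and none of the 3 with at least 20 UMIs led. Fibroblasts are not an empty background for this list. Irf8 and Zbtb46 were highest in TMC4, a fibroblast type, at 101 and 61.2 CPM. Flt3, the receptor of the dendritic growth factor, had 13 UMIs, Clec9a had 0, and Xcr1, the chemokine receptor of cross-presenting dendritic cells, had 22 in 3.76% of cells. Irf8, also a factor of monocyte precursors, had 293 UMIs in 18.0% of cells, against 21.1% of fibroblasts.

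**Figure D1:**
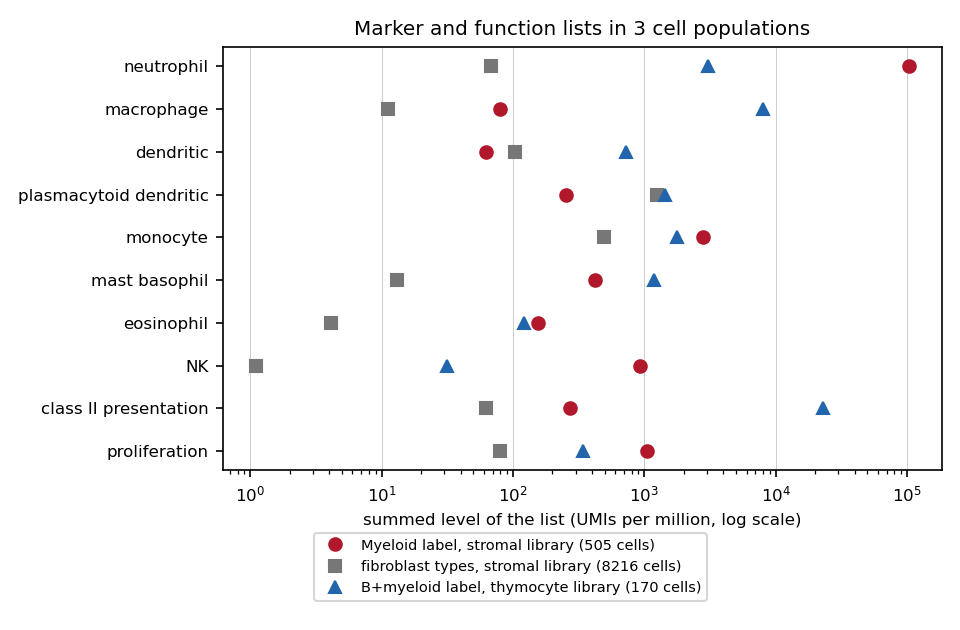
Summed level of 10 gene lists, in CPM on a log axis, in the Myeloid label of the stromal library, in its fibroblast types and in the B+myeloid label of the thymocyte library. Each point is 1 population of 1 library. The neutrophil list of the Myeloid label stands at 104172 CPM, and its macrophage and dendritic lists at 79.2 and 62.5 CPM.

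The monocyte list was intermediate. Its 10 markers summed to 2778 CPM, of which Plac8 alone gave 2343 CPM. F13a1 (the A chain of coagulation factor XIII) stood at 100 CPM in 41.2% of cells and led the next type 17.0-fold. Itgam (CD11b) stood at 85.0 CPM in 41.2% and Ccr2, the receptor that draws monocytes from marrow, at 25.2 CPM in 8.91%. Both led by lower bounds of at least 43.5-fold and at least 12.9-fold. Cx3cr1 had 3 UMIs and Fcgr3a 0.

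A few markers of other blood lineages were also present. Nkg7, a granule membrane protein of cytotoxic lymphocytes, stood at 929 CPM in 77.8% of cells, against 0.584% of fibroblasts, while 6 of the other 9 natural killer markers were at 0. Mcpt8, a basophil protease, stood at 377 CPM in 23.8% of cells. Ms4a2 of the same mast cell and basophil list stood at 33.5 CPM in 25.5% of cells, against 0.0243% of fibroblasts. The lead of Ms4a2 over the next type, TEC-a, was 2.57-fold. Cpa3, Tpsab1, Tpsb2, Fcer1a and Cma1 of that list were at 0. At least 3 markers of the list had a UMI in 10 cells (1.98%), against 0.0122% of fibroblasts. Of the eosinophil list, 6 of 10 were at 0 and Cebpe, a factor of granulocyte maturation, stood at 150 CPM in 52.7% of cells. Cd3g, a T cell receptor chain, had a UMI in 24.4% of cells against 1.68% of fibroblasts, at 78.0 CPM, far below the 1468 CPM of the Thymocyte label. Cd3e, another such chain, had a UMI in 11.5% of cells against 0.572% of fibroblasts.

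Apart from the fibroblast list, described below, the remaining lineage lists summed to at most 254 CPM, some above and some below their level in fibroblasts. The thymocyte list summed to 113 CPM against 8.49 in fibroblasts, the epithelial list to 161 against 50.3 and the erythroid list to 10.6 against 4.91. The B cell list summed to 150 CPM against 1252 in fibroblasts, the innate lymphoid list to 97.4 against 937, the mural list to 92.8 against 1232 and the plasmacytoid dendritic list to 254 against 1255. Levels in fibroblasts are not background alone for such lists. Rora of the innate lymphoid list was highest in TMC4, at 1433 CPM. Of 134486 annotated UMIs of Ebf1, a member of the B cell list, only 9548 lay in the B cell label. The endothelial list stood at 60.3 CPM against 81.0 and the megakaryocyte list at 18.1 against 31.8. Leaving out 84 cells of 2 clusters with leading genes of other types, described below, brought the B cell list to 31.5 CPM, the innate lymphoid list to 34.7 CPM, the epithelial list to 47.0 CPM, the plasmacytoid dendritic list to 160 CPM, the mural list to 45.0 CPM and the endothelial list to 31.5 CPM. The erythroid list stood at 1.93 CPM without haemoglobin, ribosomal protein and mitochondrial genes.

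Although the library is described as CD45-negative stromal cells, Ptprc, which encodes CD45, had a UMI in 76.2% of Myeloid cells and in 0.925% of fibroblasts. Its level was 255 CPM, against 853 CPM in the Thymocyte label. Of the other 9 leukocyte genes listed, 7 were also at least 3-fold above the other annotated stromal cells pooled, a rule that 9.79% of 13718 genes met. They included Coro1a (an actin regulator of leukocytes) at 455 CPM and Spi1 (the myeloid factor PU.1) at 157 CPM.

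Granule classes fell into few combinations in single cells. The 4 azurophil genes (Mpo, Elane, Prtn3, Ctsg), the 3 defensins (RatNP-3b, Np4, Defa5) and the 5 specific granule genes (Camp, Ngp, Lcn2, Pglyrp1, Ltf) were grouped after their values were seen. Defensins were kept as a class of their own, so azurophil genes here means the first 4 genes only. A class was counted as present in a cell at or above 1000 CPM. By this rule 100 cells (19.8%) had azurophil genes alone, 98 (19.4%) azurophil genes and defensins, and 38 (7.52%) all 3 classes. A further 212 cells (42.0%) had defensins and specific granule genes without azurophil genes, and 40 (7.92%) specific granule genes alone. Azurophil and specific granule genes without defensins were found in 0 cells, which allows a share of up to 0.594%. Only 14 cells had defensins alone and 3 had none of the classes. In fibroblasts each of these classes passed the level in at most 0.122% of cells. The share with all 3 classes depended on the level chosen: it was 14.1% at 500 CPM and 2.57% at 2000 CPM.

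**Figure D2:**
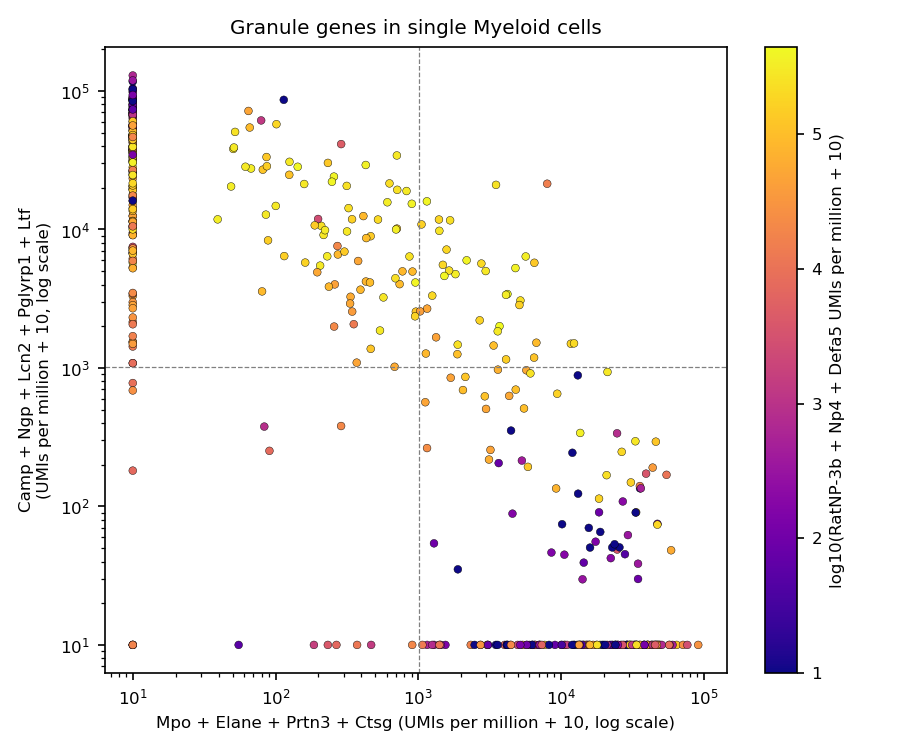
Granule genes in each of the 505 Myeloid cells. The axes are the summed azurophil genes and the summed specific granule genes in CPM plus 10, on log axes, and colour is the log10 of the summed defensins. Dashed lines mark 1000 CPM. The upper right field, with both classes, holds 38 cells, all of which had defensins.

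Clustering of the 505 cells alone gave 11 clusters. A cluster was named for a lineage when that list had the most markers that were both found in at least 25% of its cells and at least 10-fold above fibroblasts, with at least 3 such markers and no tie. The name was withheld where the 10 leading genes held more markers of another list, or where the median UMI count was under 0.333 times the library's with no marker of the name leading. In all, 6 clusters with 220 cells, 43.6% of the label (39.2% to 48.0%), were neutrophil-like. The neutrophil list did not include Mpo, Elane, Prtn3 or Ctsg, so this is not the share of all cells with neutrophil granule genes. No cluster was macrophage-like or dendritic-like. The smallest cluster had 12 cells, so this does not bound the share of single cells of these kinds. A cluster of 12 cells was epithelial-like and 4 clusters with 273 cells stayed unnamed. The neutrophil-like share ranged from 43.6% to 61.2% over the clustering settings tried, and no setting gave a macrophage-like or dendritic-like cluster.

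The neutrophil-like clusters differed in granule content, as the heat map of genes by cluster shows. In 3 of them the defensins dominated. RatNP-3b stood at 115834 CPM in a cluster of 50 cells led by histone and replication genes (H1f1, H4cl1, Slbp). It stood at 123610 CPM in a cluster of 46 cells led weakly by Cd63, a granule membrane protein, and at 123258 CPM in a cluster of 19 cells led by Defa7, Defa11 and Defa5. Ngp was at 126 CPM or less in all 3 clusters, and Elane at 128 CPM or less.

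In the other 3, late granule genes were high. A cluster of 39 cells was led by mitotic genes (Ube2c, Aurka, Cenpe) and held Camp at 37875 CPM and Ngp at 7236 CPM. A cluster of 48 cells rich in S100a9, at 215666 CPM, held Ngp at 11522 CPM and Mmp8 at 410 CPM. Its leading gene by ratio, Stfa2l3, came from 1 cell (2.08% of the cluster) and is not used as its name. The last, of 18 cells, was led by Ngp at 32495 CPM and Mmp8 at 1033 CPM. In that cluster Elane, Mpo and Prtn3 were at 0 and RatNP-3b stood at 1164 CPM. Lcn2 (neutrophil gelatinase-associated lipocalin) reached 13748 CPM and Pglyrp1 3928 CPM there. Cxcr2, the chemokine receptor of mature neutrophils, was highest there too, at 108 CPM.

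**Figure D3:**
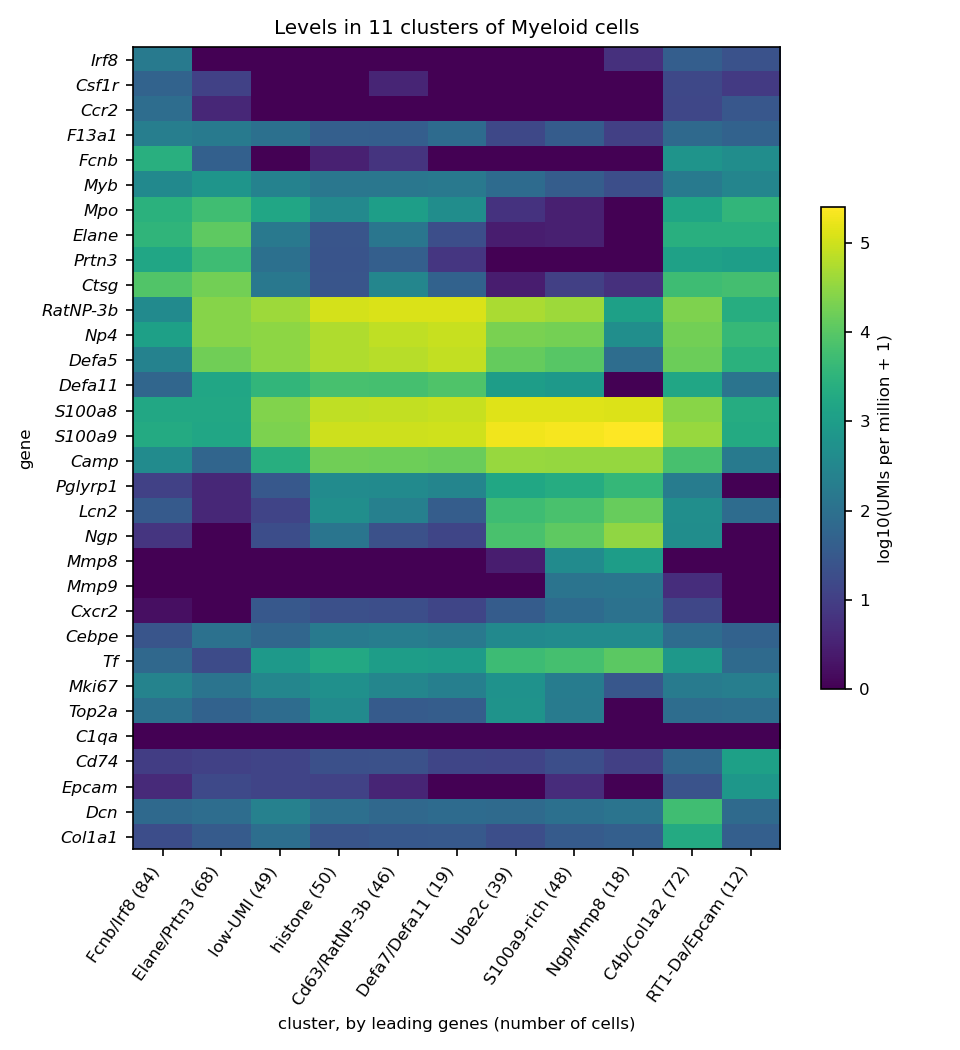
Levels of selected genes in the 11 clusters of Myeloid cells, as log10 of CPM plus 1. Columns are clusters named by leading genes, with their cell numbers, and rows are genes ordered by role. Summed azurophil genes are highest in the first 2 columns and are also high in the last 2. Summed defensins are highest in the histone, Cd63/RatNP-3b and Defa7/Defa11 columns, followed by the low-UMI, Ube2c, Elane/Prtn3 and S100a9-rich columns. Ngp and Mmp8 are highest in the Ngp/Mmp8 column. C1qa is 0 in every column.

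Proliferation genes were high in much of the label. Mki67, a marker of cycling cells, had a UMI in 69.3% of Myeloid cells against 2.46% of fibroblasts, and 9 of 10 proliferation genes were at least 3-fold above the other stromal cells together, as 9.79% of all genes were. None was 3-fold above every type. Rrm2, a subunit of ribonucleotide reductase, was highest in the Myeloid label at 99.1 CPM, and the other 9 were higher in the B cell label. With each cell thinned to 1000 UMIs, at least 2 of the 10 genes were found in 69.2% of the mitotic cluster and 64.0% of the histone cluster. The share was 20.2% in the Fcnb-led cluster described next, 18.8% in the S100a9-rich cluster and 0% (0 of 18) in the Ngp and Mmp8 cluster, which allows up to 16.7%.

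The largest cluster, of 84 cells (16.6%), was led by Hopx, Fcnb and Irf8 and stayed unnamed. Fcnb stood at 2546 CPM in 90.5% of its cells and Irf8 at 158 CPM in 82.1%. It held 4 raised monocyte markers: Ccr2 at 85.9 CPM in 42.9% of cells, F13a1 at 208 CPM in 81.0%, Plac8 at 4783 CPM and Ly86 (an adaptor of innate sensing) at 28.4 CPM in 27.4%. Csf1r, the receptor of the monocyte and macrophage growth factor, had a UMI in 50.0% of its cells, and 77 of the 103 Csf1r UMIs of the label lay in it. Azurophil genes were high, with Ctsg at 8443 CPM and Elane at 3363 CPM, and defensins low, with RatNP-3b at 392 CPM. Irf8 belongs to the dendritic list, so the leading genes held a marker of another list than the monocyte list. With 1000 or 4000 variable genes, 1 cluster each, of 81 and 54 cells, was monocyte-like by the same rule. At a resolution of 2, 3 clusters with 106 cells together were. No monocyte-like cluster arose at a resolution of 0.5, with cells thinned to 1000 UMIs, or among 253 cells without 3 markers of a non-myeloid list. The overlap of these cells with the Fcnb-led cluster was not analysed.

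A cluster of 68 cells (13.5%) was led by Elane, Prss57 (a serine protease), Prtn3 and Ctsg and also stayed unnamed, with 2 raised neutrophil markers. Elane reached 11337 CPM there and RatNP-3b 26484 CPM, while Ngp was at 0. Of its cells, 53 had azurophil genes and defensins and 14 azurophil genes alone. Nkg7 (2386 CPM), Myb, a factor of blood precursors (657 CPM), and Cd3g (179 CPM) were higher there than in any other cluster. Mcpt8 was highest in the Fcnb-led cluster at 936 CPM, followed by the Elane-led cluster at 676 CPM.

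The remaining 3 clusters were set apart by depth or by genes of other cell types. In 49 cells the median was 2772 UMIs, under 0.333 times the library median of 9087.5, and no neutrophil marker led, so no name was given. RatNP-3b stood at 41018 CPM in them. In 72 cells fibroblast genes led (C4b, Fbn1, Col1a2, Dcn), at a median of 15949.5 UMIs: Dcn (decorin) stood at 5578 CPM beside RatNP-3b at 23111 CPM and Elane at 2600 CPM. In the 12 epithelial-like cells RT1-Da, Epcam and Krt13 led at a median of 13490 UMIs, beside Mpo at 3594 CPM. No doublet caller was run. Without these 84 cells of the last 2 clusters, the neutrophil list stood at 119173 CPM, and the fibroblast list at 275 CPM in place of 3371, and the part of barcodes holding more than 1 cell in these values was not tested.

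**Figure D4:**
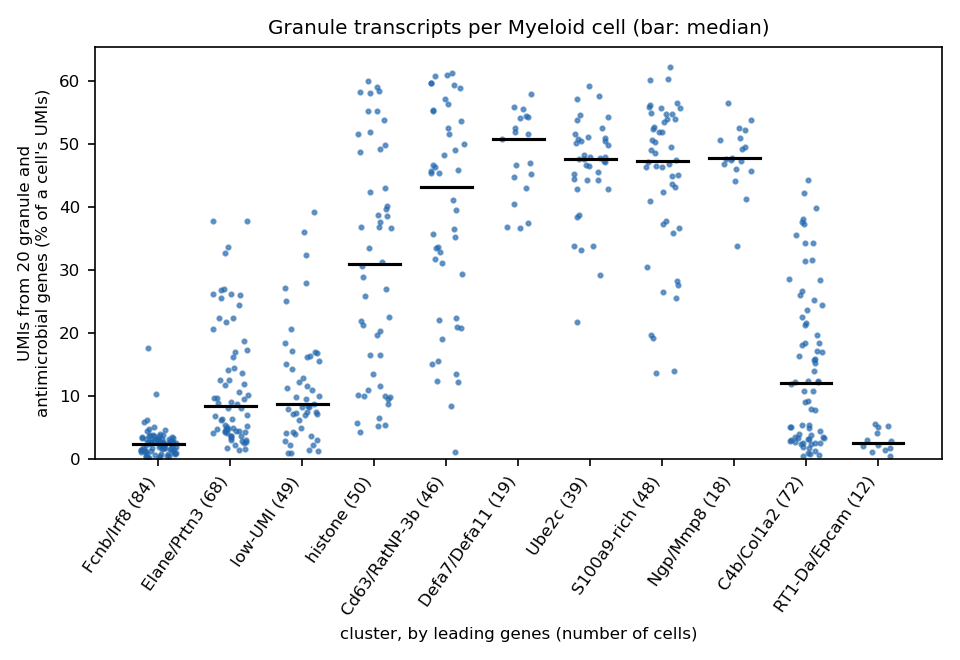
Share of each cell's UMIs that came from the 20 granule and antimicrobial genes, in percent, by cluster. Each point is a cell and each bar the median of its cluster. Medians run from 2.50% in the Fcnb/Irf8 cluster to 50.9% in the Defa7/Defa11 cluster.

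Few single cells held 3 macrophage or 3 dendritic markers at all. Their meeting with neutrophil markers could therefore only be rare, and whether the lists avoid each other was not tested. At least 3 of the 10 neutrophil markers had a UMI in 337 cells (66.7%), and at least 3 macrophage markers in 3 cells and 3 dendritic markers in 3 cells (0.594% each). A single cell had both neutrophil and macrophage markers and 1 both neutrophil and dendritic markers at this count. Thinned to 1000 UMIs, 59.2% of 503 cells kept 3 neutrophil markers, against 0.0366% of fibroblasts, and no cell held 3 of both lists. Neutrophil and monocyte markers met in 201 cells before thinning and in 5 after it, and neutrophil and fibroblast markers in 152 and 38 cells. The monocyte count was not specific, since 19.7% of fibroblasts also had 3 of those markers before thinning.

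Among functional groups, most receptors of innate sensing led the other types and most class II genes were below the other stromal cells. Of 10 receptors with enough UMIs, 7 led every type 3-fold (2.74% of all genes did), among them Tyrobp (a signalling adaptor) at 847 CPM, Fcer1g (the common Fc receptor chain) at 487 CPM and Clec7a (dectin-1, a receptor of fungal glucan) at 287 CPM. Among complement genes, C5ar1, the receptor of the C5a fragment, led by at least 60.7-fold at 119 CPM in 58.2% of cells, and Cfp (properdin) led 3.33-fold at 30.8 CPM. C3 stood at 140 CPM in 61.8% of cells, 2.03-fold above the next type. C2, C4b and Cfb were at least 3-fold below the other stromal cells together, as 30.8% of all genes were. Of 9 class II genes 6 were also below, with Cd74 (the invariant chain) at 49.5 CPM in 16.4% of cells, the share in fibroblasts being 16.0%. Of these 299 Cd74 UMIs, 161 lay in the 12 epithelial-like cells. The whole class II list summed to 271 CPM against 62.4 in fibroblasts, and to 152 CPM without the 84 cells of the fibroblast-led and epithelial-like clusters.

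Cytokine and chemokine genes went both ways against the other stromal cells together. Of 10 cytokine genes 3 (Il1b, Il1rn and Osm) were at least 3-fold higher and 5 lower, and of 10 chemokine genes 3 were higher and 6 lower. Over all genes 9.79% were higher and 30.8% lower. Osm (oncostatin M) led the next type 40.3-fold at 78.7 CPM, against 1 UMI in TEC-a, raised to the floor of 3 UMIs. Ccl3, a chemokine of activated myeloid cells, stood at 194 CPM in 42.8% of cells, near the 140 CPM of the Thymocyte label. Il1b was at 10.8 CPM and Tnf at 4.80 CPM. Of 9 interferon-stimulated genes 7 were 3-fold below the other stromal cells together, as 30.8% of all genes were, and none above.

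Of 7 efferocytosis and scavenging genes compared, which serve the uptake of dying cells, 5 were at least 3-fold below the other stromal cells together and 1 above. Over all genes 30.8% were lower and 9.79% higher. The whole list summed to 142 CPM against 1511 in fibroblasts. It stood at 41.2 CPM without the 84 cells of the fibroblast-led and epithelial-like clusters. Lysosome genes were near the background of all genes, with 3 of 12 lower, 1 higher and a median ratio of 0.610 to the other cells. Of 6 iron and haem genes 2 were lower and 1, Tfrc (the transferrin receptor), higher, which is near the shares over all genes. Hmox1 (haem oxygenase), used in haem breakdown, had 7 UMIs. Chemokine receptors summed to 146 CPM against 7.33, of which Cxcr4, a receptor that holds precursors in marrow, gave 91.6 CPM in 49.3% of cells.

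The thymocyte library held a different myeloid population. Its B+myeloid label covers 170 cells, with a median of 11506.5 UMIs, and it joins B cells to myeloid cells. There C1qa had 6316 UMIs (2642 CPM) in 43.5% of cells and the macrophage list summed to 7948 CPM, against 79.2 CPM in the stromal Myeloid label. RatNP-3b had 0 UMIs, Np4 1 and Elane 1. Of 9 macrophage genes with enough UMIs all 9 were at least 3-fold lower in the stromal Myeloid label, as were all 9 dendritic and all 11 class II genes, where 15.2% of 10495 genes were. Of 18 granule genes 15 were at least 3-fold higher in the stromal label, where 6.96% of genes were. Mmp8 was an exception among granule genes, at 152 CPM in the B+myeloid label and 71.9 CPM in the stromal one. S100a8, with 6497 UMIs there, came from 10 cells. The libraries differ in digestion, in CD45 depletion and in the label, and the parts of these in the differences cannot be told apart. Of 28 annotated barcodes present in both libraries, 1 was a Myeloid cell.

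On the section, none of the 31 deposited deconvolution labels named a myeloid type, so the position of these cells could not be described.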

How the data were processed

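The authors deposited a matrix of UMI counts for each droplet library. Its header names Cell Ranger 8.0.0. Build mRatBN7.2 and Seurat 5.3.0 are named in the submitters' processing notes. Cell labels, counts and percent of mitochondrial UMIs per cell are those deposited by the authors, per the file headers. The RCTD labels of the section were read by name only.

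UMIs were summed over the cells of a label and given as CPM, with exact Poisson intervals; shares have exact Clopper-Pearson intervals, all at 95%, and the limit given for a count of 0 is 3 counts. Genes with at least 20 UMIs were compared with every other label of at least 50 cells, a label under 3 UMIs being set to 3. Depth was 932 to 50567 UMIs per Myeloid cell, and 2 cells under 1000 UMIs were left out of thinned counts.

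The 505 cells were clustered with scanpy 1.11.5 and leidenalg 0.10.2 in Python 3.11.15: counts per 10000, log1p, 2000 variable genes among those in at least 10 cells, 20 components, 15 neighbours, resolution 1. The rule for leading genes and the clustering with its naming rule were tried on simulated data. The simulated cells had profiles of the Myeloid label, TEC-d and TMC1 only. They cannot show whether macrophage-like or dendritic-like clusters would be named. Names came from 17 lineage lists and functions from 13, of which 3 listed names are not in the file.

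Genes named are the 3 markers given for the label, the 20 largest leads (at least 100 UMIs, at least 10% of cells, no identifier names), the 4 most abundant and the absent members of lists, the 10 leading genes of clusters (at least 50 UMIs), and Ptprc. Other list members were named to show a role. The members and lists were chosen with earlier results of these data known, and the naming rule and granule classes after their values were seen.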

Additional observations from a re-analysis of the deposited data

Results flagged for a closer look

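Granule transcripts were found in data outside the Myeloid label. Of 2934 stromal barcodes without an annotation, 4 drew at least 10% of their UMIs from the 20 granule and antimicrobial genes. Of these, 3 had at most 500 genes, the limit below which the annotation holds no cell. In the label 300 cells passed that share, and 2 of the 12721 other annotated stromal cells did. C1qa had 11 UMIs in the barcodes without an annotation.

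In the thymocyte library RatNP-3b had 2537 UMIs outside the B+myeloid label and 0 inside it. A single cell labelled DP1, a double-positive thymocyte label, held 2534 of them. Defa5, with 1591 UMIs outside the label, and Np4, with 1237, had highest single-cell values of 1589 and 1219 UMIs.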

How the results depend on the processing

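No paired analysis was possible because no group has more than 1 sample. The Myeloid share of annotated cells stayed inside its interval with cells of at least 1000 UMIs, cells up to the 99th percentile of UMIs, and projected labels. The count of 309 leading genes became 141 with cells thinned to 1000 UMIs, where fewer genes reach 20 UMIs, and stayed within 1.5 times under the other alternatives. The neutrophil list stood at 109327, 103612, 121184 and 119173 CPM with cells up to the 99th percentile, the mean of the cells' own CPM, totals without mitochondrial, ribosomal protein and haemoglobin genes, and without the 2 clusters led by genes of another cell type (the last chosen after seeing the data). The monocyte list stood at 2641, 1963, 3232 and 2914 CPM in the same order. The dendritic list stood at 50.8 CPM by the cells' own CPM, and without those gene classes it stood at 72.6 CPM and the macrophage list at 92.1 CPM. The neutrophil-like share was 53.7% at resolution 0.5, 50.9% at resolution 2, 61.2% with 4000 variable genes, 55.5% with thinned cells, and 58.5% of the 253 cells without 3 markers of a non-myeloid list; the cause was not tested. The share of cells with neutrophil and with macrophage or dendritic markers was 0.396%, and 0% when thinned. Of the other lists, the mast cell and basophil list stood at 222 in place of 425 CPM by the cells' own CPM, and the cytokine list at 234 in place of 396 CPM without those 2 clusters. The leads of the named genes over the next type did not change direction under any alternative run. For the main shares, list levels and counts only a move beyond the interval or limit was recorded. Of these comparisons 18 moved and 35 did not. Levels of genes under 20 UMIs are limited by depth.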

Other observations

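Olfm4 (olfactomedin 4), a glycoprotein of specific granules, varied among 4 of the neutrophil-like clusters in another way than Camp. It had a UMI in 100% of the 19 cells of the Defa7 cluster (6349 CPM) and in 87.5% of the S100a9-rich cluster (6562 CPM). It had a UMI in 6.52% of the Cd63 and RatNP-3b cluster (80.1 CPM) and in 0 of the 18 cells of the Ngp and Mmp8 cluster. Camp, also of specific granules, had a UMI in 97.8% to 100% of the cells of these 4 clusters. Tf, which encodes the iron carrier transferrin, followed another pattern, at 10989 CPM in the Ngp and Mmp8 cluster, 6489 CPM in the S100a9-rich cluster and 16.2 CPM in the Elane-led cluster.

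Ltf differed between the libraries. It had 34 UMIs in all annotated stromal cells, 4 of them in the Myeloid label, and 1210 UMIs in 903 cells of the thymocyte library, none in the B+myeloid label.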
